A study of Mus musculus with 27 samples.

Results

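Distal regions of low but not absent DNA methylation were described in hepatocytes, the parenchymal cells of the liver, of mice. The genome was cut into 1 kb tiles, and a tile was kept when it lay on an autosome, held at least 5 positions listed in all 27 samples, had a mean methylation level between 10 and 30% in each of the 9 strains, and had its midpoint more than 5 kb from either end of every protein-coding gene in the GRCm38 gene table. The rule selected 357 of 61991 autosomal tiles with enough positions, and of 30053 such tiles beyond 5 kb from a gene end. The 357 tiles, called the distal low tiles here, held 5390 positions. The tiles were thus selected on their measured methylation, the strain means of all 27 samples, so their level and its range over strains are given as a description, with no test.

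The samples were hepatocytes of female mice aged 12 weeks from 9 inbred strains, with 3 biological replicates of each. The laboratory strains were A/J, NOD/ShiLtJ, C57BL/6J, NZO/HlLtJ, DBA/2J and 129S1/SvImJ, and the strains derived from wild mice were PWK/PhJ, WSB/EiJ and CAST/EiJ. No strain was a control; no treatment is named. Methylation was read by reduced representation bisulfite sequencing (RRBS), in which the enzyme MspI cuts DNA at CCGG and a bisulfite step separates methylated from unmethylated cytosine, so that reads gather where CpG is dense.

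In most mammalian tissues nearly all CpGs are methylated, except at CpG islands, which are dense in CpG and often hold promoters, and at distal regulatory elements bound by transcription factors. Active enhancers away from promoters commonly show low, intermediate methylation, as do the edges of unmethylated islands, where the level climbs over a short distance. A low mean over a tile can therefore come from positions that are all partly methylated or from a mixture of unmethylated and methylated positions, and the values below separate these. Each value is a mean over many cells and both chromosome copies, so a position methylated in a part of the cells and one methylated on a single copy in each cell cannot be told apart.

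The files held no histone marks, so whether the tiles are enhancers was not checked here. The labelled cell type was compared with methylation at ends of marker genes. Of 24 hepatocyte markers in the gene table, 6 had at least 3 positions within 1 kb of an end, and the lower end of each was under 30%, with a median of 6.64%. Of 27 markers of other liver and blood cell types, 14 were read, with a median of 20.6%. Of these 8 were under 30%, among them the cholangiocyte genes Sox9 at 1.03% and Krt19 at 6.03% and the stellate cell gene Reln at 0.616%. Another 4 were over 60%, among them the macrophage genes Clec4f, Adgre1 and Csf1r at 90.4, 86.9 and 93.2%. Markers of both kinds thus had low values at gene ends, and the levels did not separate the lists throughout. Each sample listed 2904787 to 3156965 positions, and no file gave the number of reads behind a value.

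The letters of these tiles could be read where a RefSeq promoter window of GRCm38 overlapped one, and 29 such windows did. Printed are 250 bases upstream of 4 annotated starts, 5′ to 3′ on the strand of the gene, with capitals for bases at positions read in all 27 samples and inside the tile. The first 3 show windows whose positions averaged in the low band, and the last shows an unmethylated stretch inside a tile that passed the rule through other positions.
Gm39329, chr9:46328715-46328964, plus strand: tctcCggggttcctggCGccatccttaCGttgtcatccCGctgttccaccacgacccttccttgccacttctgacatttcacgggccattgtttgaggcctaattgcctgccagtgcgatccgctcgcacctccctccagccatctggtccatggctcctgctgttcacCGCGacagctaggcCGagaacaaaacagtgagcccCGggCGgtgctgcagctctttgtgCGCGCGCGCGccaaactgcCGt
Gm31816, chr9:47368245-47368494, minus strand: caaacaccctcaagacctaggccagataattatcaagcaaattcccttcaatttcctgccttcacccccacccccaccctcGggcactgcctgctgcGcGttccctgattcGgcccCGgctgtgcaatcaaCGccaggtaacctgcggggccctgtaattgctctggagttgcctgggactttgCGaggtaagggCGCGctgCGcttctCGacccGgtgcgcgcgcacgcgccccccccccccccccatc
Gm38483, chr11:100673137-100673386, plus strand: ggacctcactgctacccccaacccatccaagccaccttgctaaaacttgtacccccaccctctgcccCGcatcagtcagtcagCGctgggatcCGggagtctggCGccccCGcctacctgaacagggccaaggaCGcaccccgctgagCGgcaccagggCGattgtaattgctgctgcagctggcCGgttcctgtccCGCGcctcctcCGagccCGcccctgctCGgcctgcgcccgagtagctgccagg
Prr5, chr15:84680748-84680997, plus strand: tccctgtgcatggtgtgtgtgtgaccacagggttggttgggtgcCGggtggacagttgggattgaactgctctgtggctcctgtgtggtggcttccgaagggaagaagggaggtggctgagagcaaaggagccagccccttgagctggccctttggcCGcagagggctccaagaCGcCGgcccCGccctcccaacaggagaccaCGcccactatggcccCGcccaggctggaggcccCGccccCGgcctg

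Gm39329, Gm31816 and Gm38483 are long noncoding RNA genes. In the Gm39329 window 29 positions averaged 17.2% over the 27 samples and single positions ran from 5.34 to 64.4%. In the Gm31816 window 19 positions averaged 15.5%, from 1.79 to 31.2%. In the Gm38483 window 28 positions averaged 12.8%, from 3.86 to 38.4%. The capitals in these 3 windows thus mark cytosines that were partly methylated rather than a single methylated site among unmethylated ones. The Prr5 window differed: its 18 positions averaged 1.41%, from 0 to 6.54%. Prr5 encodes a subunit of the mTORC2 kinase complex. Its tile still averaged 12.5%, because other positions of the tile reached 91.2%.

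The 29 windows had a median GC content of 60.7% and 15 CpGs in 300 bases, against 53.0% and 7 over 32619 RefSeq promoter windows. The observed number of CpGs over that expected from the C and G content was 0.524 and 0.387. The MspI site CCGG, which reads the same on both strands, occurred in 21 of the 29 windows (72.4%) and in 53.1% of all windows. RRBS reads DNA near this site, and a tile needed at least 5 positions read in all 27 samples. That choice bears on all of these differences, so nothing is read from them. Some of the 29 windows belong to the same gene.

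Most distal low tiles were mixtures. Only 27.6% of their 5390 positions had a 27-sample mean between 10 and 30%. Another 34.9% lay under 5%, 17.8% between 5 and 10%, 9.94% between 30 and 50% and 9.72% above 50%, and the median position was at 9.01%. The plot of position levels shows the pile of positions near 0 and the thin tail that reaches 100%. In 205 tiles (57.4%) at least 1 position was under 5% while another was over 50%. In 81 tiles no position lay in the band that the tile mean had been selected for, and in 7 tiles every position did.

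**Figure D1:**
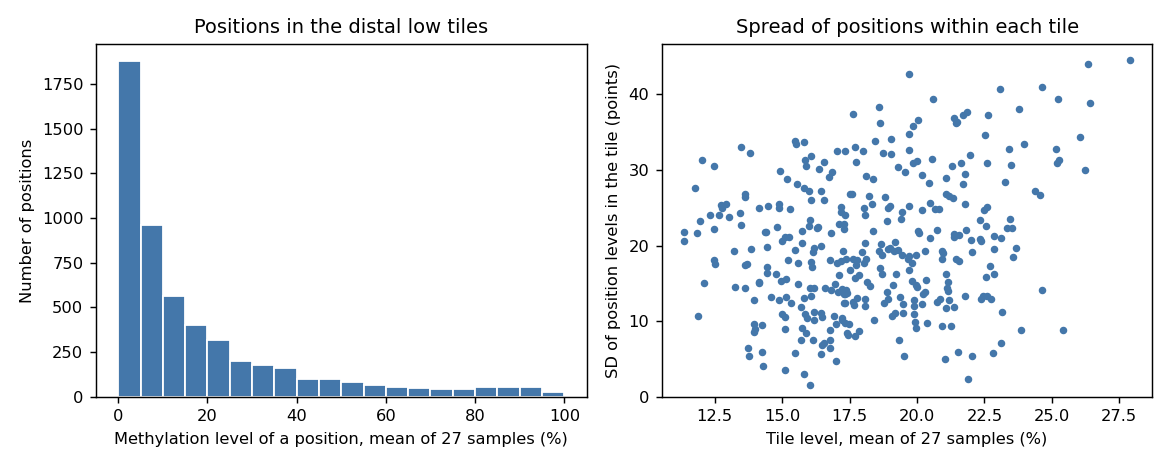
Left, the number of positions of the distal low tiles by methylation level (mean of 27 samples, %); right, each tile as a point by its level (%) and the standard deviation of its position levels (percentage points). Positions crowd under 10%, and over all 357 tiles unevenness runs from 1.52 to 44.5 points.

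Unevenness was taken as the standard deviation (SD) of position levels within a tile, in percentage points. Its median over the 357 tiles was 19.3, from 1.52 to 44.5. In 46 tiles (12.9%) it was under 10, and in 166 (46.5%) it was 20 or more. An SD under 10 does not place every position in the band. The tile inside Six3, with an SD of 8.99, ran from 5.46 to 33.5%, and 6 of its 18 positions lay in the band. Evenness holds only for the stretch that was read. The positions of a tile spanned a median of 357 bases, and in 30 tiles under 100 bases. Distance between positions ordered the differences. Neighbouring positions 1 base apart, mostly the strands of a CpG, differed by a median of 1.38 points over 2252 pairs, and positions 21 to 100 bases apart by 4.07. Beyond 100 and up to 300 bases the median difference was 9.65, and beyond 300 bases it was 37.6. The pairs share tiles, so these are descriptions. Of 247 tiles with 8 or more positions, 81 (32.8%) had levels that climbed or fell along the tile with a Spearman correlation with the coordinate of at least 0.7 in size.

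The 5 most even tiles with 8 or more positions lay near Rmi1, Cdh23, Podxl, Pax3 and Fbrsl1. Near Rmi1, which encodes a member of the complex that dissolves DNA crossovers, the 9 positions ran from 10.9 to 21.4% (SD 3.56). Inside Cdh23, the gene of a cadherin of inner-ear hair cells, 9 positions ran from 9.24 to 22.4% (SD 4.75). The tile near Podxl, which encodes a surface sialomucin, held 10 positions from 13.3 to 29.6% (SD 4.98). Inside Fbrsl1 the pattern was carried by 34 positions over 409 bases, from 6.85 to 26.7% (SD 5.66). In none of these 5 tiles was a position under 5% or over 50%.

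The 5 most uneven tiles were near Trim7, Padi1, Klf13, Nfic and Steap3. Their positions spanned 656 to 870 bases, where those of the 5 most even tiles spanned 74 to 409 bases. Inside Trim7, which encodes a ubiquitin ligase, 7 of 11 positions were under 5% and 3 were over 50%, with a maximum of 97.9% (SD 44.5). Near Padi1, which encodes an enzyme that converts arginine to citrulline, 5 of 8 positions were under 5% and the highest was at 98.9% (SD 44.0). The tile near the transcription factor gene Klf13 held 18 positions under 5% and 7 over 50%, and none in the band (SD 39.3). In the panels of single tiles, the low and the high positions sit at separate distances from the midpoint, not interleaved. In Nfic, the gene of a transcription factor, and Steap3, the gene of a ferrireductase, 9 of 15 and 6 of 11 positions were under 5%.

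**Figure D2:**
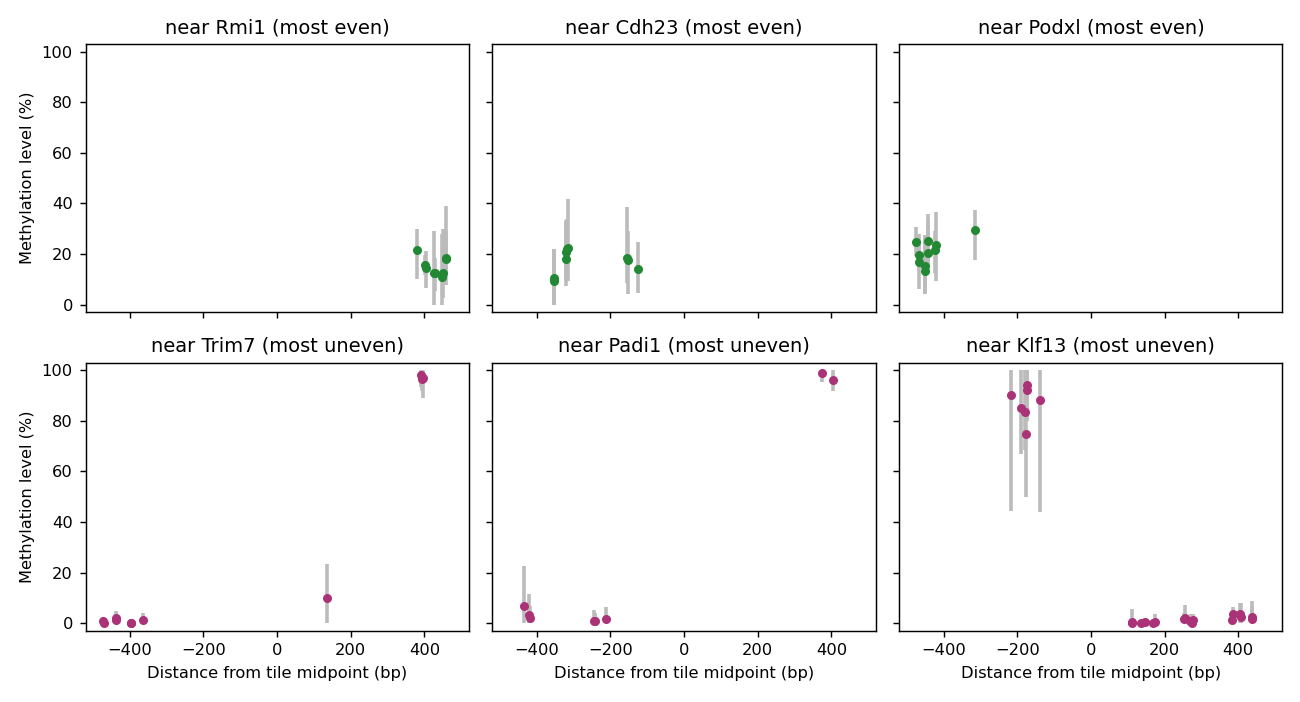
Methylation level (%) of every shared position by its distance from the tile midpoint (bp), for the 3 most even tiles (top) and the 3 most uneven (bottom); points are means of 27 samples and grey bars span the 9 strain means. Near Rmi1, Cdh23 and Podxl all points lie between 9.24 and 29.6%, while near Trim7, Padi1 and Klf13 they split into a low and a high group, with maxima of 97.9, 98.9 and 93.9%.

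The tiles with the most positions were also mixed. The tile with the most positions, 130 over 577 bases inside Neurl1a, which encodes a ubiquitin ligase, averaged 12.5%, with 78 positions under 5% and 7 over 50%. Its samples ran from 9.69, 10.2 and 11.6% in 129S1/SvImJ to 13.7, 15.4 and 17.6% in CAST/EiJ. Near Cdkn1c, an imprinted gene that encodes an inhibitor of cyclin-dependent kinases, 121 positions averaged 16.1%. There the 3 A/J samples were at 21.8, 22.9 and 25.4%, above every sample of the other 8 strains, whose highest value was 19.2%. Prdm11, Heyl and Slc30a3, which encode a PR-domain protein, a repressor in Notch signalling and a zinc transporter of synaptic vesicles, held the next 3 tiles, with 82, 77 and 71 positions and levels of 16.6, 14.4 and 16.2%.

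Unevenness was then compared with that of 293 tiles of the same band whose midpoint lay within 1 kb of a protein-coding gene end. The median SD within a tile, computed per sample, was lower in the distal low tiles in 27 of 27 samples. The difference was −2.50 points ± 0.418 (SD over 9 strains), between −3.01 and −1.95 in single strains. All strains share the same tiles, and the spread is computed from the percentages that the rule used. The difference is therefore given as a description, with no test, and its spread over strains is not one between tiles. With the range from the lower to the upper quartile in place of the SD the difference shrank to −0.535 points. Against gene-end tiles within 2 kb in place of 1 kb it was −1.49 points.

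The same contrast appeared in the makeup of the tiles. Positions under 5% were 34.9% of those in distal low tiles and 43.5% of those in gene-end tiles. Tiles that mixed positions under 5% with positions over 50% were 57.4% and 71.3%, and those with an SD under 10 were 12.9% and 7.51%. The sets were alike in mean tile level, 18.3 and 17.9%, but differed in the median number of positions, 10 and 17. Among tiles with 10 or more positions the difference in median SD was −2.10 points. At matched spacing the order was not the same throughout. Positions of distal low tiles differed by more than those of gene-end tiles at 2 to 20 bases (medians 3.25 and 2.53 points), at 21 to 100 bases (4.07 and 3.76) and beyond 100 and up to 300 bases (9.65 and 8.16), and by less beyond 300 bases (37.6 and 41.0).

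The surroundings of both sets were profiled next. The mean level over tiles climbed from 18.3% in the distal low tile to 28.7% at 0.5 to 1 kb from its midpoint and 50% at 1 to 2 kb, and was 55.5% at 5 to 10 kb. The median over tiles did not climb at first. It was 18.1% in the tile, 16.0% at 0.5 to 1 kb, where 187 tiles had positions, 82 of them under 10% and 38 over 60%, and 53.0% at 1 to 2 kb. Around gene-end tiles of the band the mean was 17.9% in the tile, 11.8% at 0.5 to 1 kb and 28.1% at 1 to 2 kb, and the median 17.7, 3.09 and 6.41%. Distal tiles with all strains under 10% were at 2.21% and rose to 25.3% at 1 to 2 kb. All distal tiles together averaged 70.5%. The profile of mean level by distance shows samples differing little at each distance. Tiles were chosen for a low level, so a rise away from them is built into the choice.

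**Figure D3:**
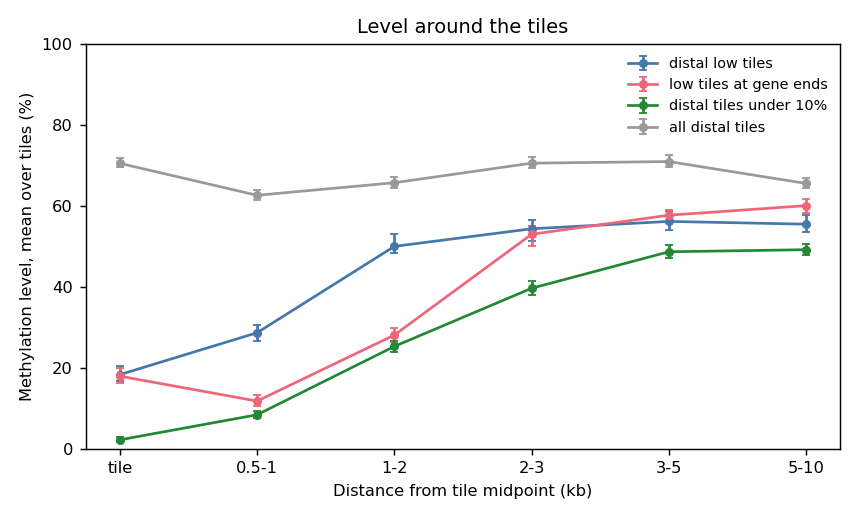
Mean methylation level over tiles (%) in the tile and at increasing distance from its midpoint (kb, categories not to scale) for the distal low tiles, tiles of the same band at gene ends, distal tiles under 10% and all distal tiles; points are means of 27 samples and bars span the lowest to the highest sample. From 0.5 to 1 kb the distal low tiles are at 28.7% and the gene-end tiles at 11.8%; at 2 to 3 kb they are at 54.4 and 53.0%.

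The flanks of single tiles fell into unlike kinds. Of 201 distal low tiles with a shared position at 1 to 3 kb, 43 had a flank under 10%, 24 at 10 to 30%, 33 at 30 to 60% and 101 over 60%, and the median was 60.1%. Of 55 tiles read on both sides, 17 were over 60% on both, 4 under 10% on both, and 10 under 10% on one side and over 60% on the other. Tiles of all these kinds passed the same rule. The set thus holds tiles with high flanks on both sides, with low flanks on both sides and with one of each. This covers only tiles read on both sides, at 1 to 3 kb, and some of these fitted none of the 3 kinds. Tiles with a flank over 60% had a median SD of 20.3 points, and those with a flank under 10% had 16.1. Pooled over positions, the flank was only 1.78 points above the tiles. With tiles over 2 kb from a gene end the pooled difference was −5.77.

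The lowest flanks, among tiles with at least 5 flank positions, were near Srrm2, Rbbp8, Rabgap1 and Mthfd2, at 0.436 to 0.752%. Srrm2 encodes a protein of the spliceosome, and the 12 positions of its tile averaged 23.5%, with 7 under 5% and 3 over 50%. A promoter window of Srrm2 met this tile. Inside Mthfd2, which encodes a mitochondrial enzyme of folate metabolism, 5 positions averaged 20.1% next to a flank of 68 positions at 0.752%. The highest flanks, 94.8 to 97.3%, were near Gorasp1, Fbxl20, 2900026A02Rik, Hsp90aa1 and Slc4a1. Inside Gorasp1, the gene of a Golgi stacking protein, 8 positions averaged 17.4% beside a flank at 97.3%. Near Slc4a1, the gene of the red-cell anion exchanger, 5 positions averaged 19.8% beside a flank at 94.8%, and that tile lay inside the long noncoding RNA gene Bloodlinc. The tile in Slc30a3 sat on a border, with 93.5% on one side and 0.623% on the other.

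The place of the tiles relative to genes was set beside that of all distal tiles. A protein-coding gene contained 169 of the 357 tiles (47.3%), against 59.0% of all 30053 distal tiles. A long noncoding RNA gene overlapped 80, in whole or in part (22.4%, against 13.8%, and 23.0% of distal tiles under 10% in every strain). Of the 357 tiles, 38 (10.6%, against 6.12%) lay within 1 kb of an end of such a gene. Distal tiles under 10% had 16.8% within 1 kb of such an end. A RefSeq promoter window met 23 of the 357 tiles (6.44%), against 5.14% of all distal tiles and 25.7% of distal tiles under 10%. The median distance to a protein-coding gene end was 20.8 kb, against 24.95 kb. By autosome, 0.650% (chromosome 3) to 1.86% (chromosome 11) of distal tiles were distal low tiles. The tiles had 329 nearest genes, of which 25 were nearest to more than 1 tile. Septin9, which encodes a cytoskeletal GTPase, was nearest to 5 tiles on chromosome 11, at 14.8 to 18.9%, of which 3 lay inside the gene. These shares are descriptions; none was tested.

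The nearest genes were set against lists of liver and developmental genes. Of 36 hepatocyte transcription factors, 5 were nearest to a tile, which is 1.40% of the distal low tiles, against 0.835% of all distal tiles, 1.66% of distal tiles under 10% in every strain and none of the gene-end tiles of the band. None of 29 genes of liver metabolism in the gene table was nearest to one of the 357 tiles, where 0.186% of all distal tiles had such a neighbour. Developmental transcription factors were nearest to 24 tiles (6.72%), against 2.72% of all distal tiles, 7.32% of distal tiles under 10% and 1.71% of gene-end tiles of the band. The tiles near developmental factors had a median SD of 12.8 points, against 19.3 over all 357, and the 5 near hepatocyte factors one of 29.3, with 4 of them mixing positions under 5% and over 50%.

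The strain test used below was limma's moderated F test on the log2 ratio of the methylated to the unmethylated percentage of a tile. It called 108 of the 357 tiles (30.3%) at a Benjamini-Hochberg adjusted p under 0.05. Of all 45600 tested tiles, on the autosomes and the X chromosome, 26.1% were called. The rule limited the strain means to 20 points, so nothing is read from the share of the 357 tiles. The adjusted p-values of single tiles below, from the same fit over all tiles, are given as a description. The share of distal low tiles called rose with the number of positions, from 17.5% of those with 5 to 9 positions to 47.3% of those with 20 or more. The median SD within a strain fell from 4.12 to 2.13 points. Among gene-end tiles of the band the share rose from 17.0 to 36.8% between the same classes. Over all distal low tiles the median range of strain means was 10.1 points and the median SD within a strain 3.37.

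Among the 5 tiles near hepatocyte factors, 3 were called, where 30.3% of the distal low tiles and 26.1% of all tested tiles were; nothing is read from so few. Mlxipl encodes the carbohydrate-responsive factor ChREBP, and the 6 positions of the tile inside it, over 129 bases, were evenly low, from 12.2 to 20.5%. PWK/PhJ samples there were at 27.8, 28.7 and 32.3%, above every sample of the other strains, whose highest was 23.8% in WSB/EiJ (limma, adjusted p = 0.013). The tile inside Esrrg, the gene of an orphan nuclear receptor, was a sharp mixture of 40 positions under 5% and 14 over 50%. Its unmethylated part includes the promoter window of the noncoding Gm36388, where 39 positions averaged 0.572%. Promoter windows of Esrrg itself also met the tile, one with 1 position at 4.45% and another with 2 positions averaging 0.158%. The tile nearest to Cebpb, which encodes a factor of the acute-phase response, lay 91068 bp away, ran from 15.6% in C57BL/6J to 29.6% in A/J (limma, adjusted p = 0.0073), and had a flank at 93.2%, read at 1 position on each side. Near Srebf1, the lipid synthesis regulator, and Foxa1, a pioneer factor, the adjusted p was 0.46 and 0.55, and both tiles held positions under 5% and over 50%.

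Of the 24 tiles near developmental factors, 11 were called, beside the same 30.3% and 26.1%, and nothing is read from this count either. The tile inside Pax3, a factor of neural crest and muscle, was among the most even (SD 5.44), and ran from 9.62, 9.97 and 11.9% in DBA/2J to 27.3, 27.4 and 27.96% in PWK/PhJ (limma, adjusted p = 0.0032). The tile inside Pax2, a factor of kidney development, was at 14.2% beside flanks of 1.56 and 3.29%, and the Six3 tile, near a factor of forebrain development, was at 14.0% beside 2.61 and 2.31%. These tiles sit within largely unmethylated DNA. A second tile near Pax2 lay 27100 bp away, at the same level, 14.2%, beside a flank of 87.1%. Sox2, a factor of pluripotency, had a tile 16039 bp away at 16.8%, inside the noncoding gene Sox2ot, from 10.6% in A/J to 23.6% in CAST/EiJ (limma, adjusted p = 0.01). Near Hoxc12, a homeobox gene, the tile lay inside the noncoding gene Hotair at 15.3% (limma, adjusted p = 0.55). Among the tiles of this list that were not called, limma's adjusted p ran from 0.1 near Six2 to 0.93 at the second Pax2 tile, and was 0.68 near Six3.

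The 5 smallest adjusted p-values of limma's F test fell on tiles near 2300002M23Rik, Dlx4, Smoc1, Heyl and Scn4b. The tile near 2300002M23Rik, on chromosome 17 from 35575001 to 35576000, was at 10.5, 15.9 and 16.0% in DBA/2J and 11.9, 13.7 and 16.9% in A/J. It was at 29.2, 30.1 and 30.6% in NZO/HlLtJ and 29.4, 29.6 and 29.9% in 129S1/SvImJ (adjusted p = 1.4e-05). The low and the high pair of strains, which had the lowest and the highest strain means of this tile, did not overlap. All of its 29 positions were above 5%, and 6 of them were called on their own.

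Near Dlx4, a homeobox gene, 62 positions gave 8.85, 11.0 and 12.4% in WSB/EiJ and 22.9, 24.2 and 26.9% in A/J (adjusted p = 6.5e-05). NOD/ShiLtJ, at 21.1, 21.7 and 23.0%, was the strain next to A/J, and their samples overlapped. Its flanks were read at 1 position on each side, at 91.1 and 68.9%. Near Smoc1, which encodes a secreted calcium-binding protein of the matrix, CAST/EiJ was at 27.1, 27.7 and 30.3% and PWK/PhJ at 21.3, 22.6 and 25.8%. Both lay above all samples of the other 7 strains there, of which the lowest strain was DBA/2J at 9.21, 9.82 and 12.3% (adjusted p = 8.4e-05).

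Inside Heyl, 77 positions separated NOD/ShiLtJ, at 19.2, 19.6 and 20.5%, from WSB/EiJ, at 8.93, 10.2 and 11.7% (adjusted p = 9.5e-05). NOD/ShiLtJ lay above every other sample of that tile. Inside Scn4b, which encodes a sodium channel subunit, 11 positions within 27 bases gave 26.9, 27.7 and 28.2% in NOD/ShiLtJ and 6.23, 10.7 and 16.1% in C57BL/6J (adjusted p = 0.00018). NZO/HlLtJ, at 23.9, 26.8 and 27.5%, overlapped NOD/ShiLtJ.

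**Figure D4:**
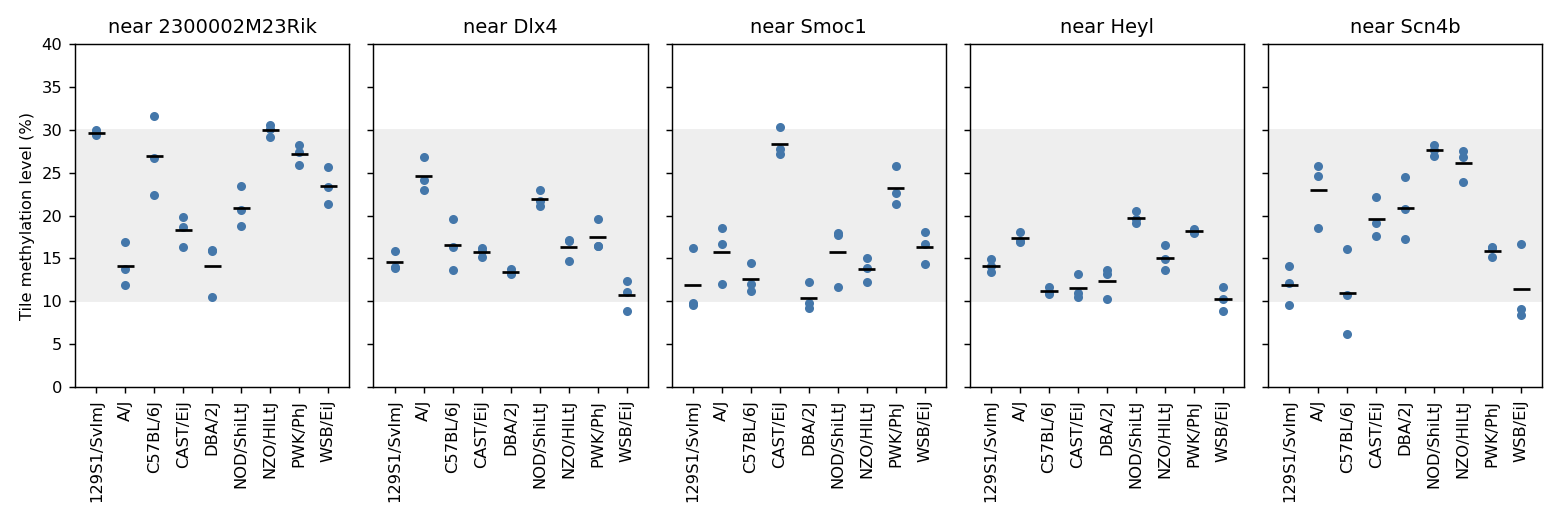
Tile methylation level (%) by strain for the 5 tiles with the smallest adjusted p among strains; points are samples, black lines are strain means and the grey field is the band of 10 to 30% that the rule set for strain means. CAST/EiJ stands highest near Smoc1 and NOD/ShiLtJ near Heyl and Scn4b, while A/J and DBA/2J are low near 2300002M23Rik.

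The tiles at which promoter letters were printed had the following levels. The Gm39329 tile was at 24.3, 24.4 and 34.9% in CAST/EiJ and at 10.4, 14.1 and 15.4% in C57BL/6J (limma, adjusted p = 0.0023). The Gm38483 tile, inside Zfp385c, was at 24.4, 27.1 and 29.5% in CAST/EiJ and at 10.9, 12.2 and 15.4% in WSB/EiJ (limma, adjusted p = 0.001). The Gm31816 tile was at 24.99, 28.7 and 31.0% in NOD/ShiLtJ and at 12.0, 12.3 and 15.2% in WSB/EiJ (limma, adjusted p = 0.00042). The samples of the named strains did not overlap in these 3 tiles. How often strains so far apart do not overlap over all tiles is not given here, so nothing is read from this. The Prr5 tile stayed between 9.53 and 15.3% in all samples (limma, adjusted p = 0.14).

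Over the 357 tiles the highest strain mean was that of PWK/PhJ in 96, A/J in 68 and CAST/EiJ in 63, and the lowest that of WSB/EiJ in 64, C57BL/6J in 57 and DBA/2J in 51. The level over all their positions was 19.5% ± 0.131 in PWK/PhJ (SD, n = 3), 19.3% ± 0.0740 in A/J and 18.8% ± 0.0529 in CAST/EiJ. It was 16.3% ± 0.341 in WSB/EiJ and 16.6% ± 0.295 in C57BL/6J. The mean over all 61991 autosomal tiles with enough positions put the same strains first, with 49.8, 49.5 and 49.5% in PWK/PhJ, A/J and CAST/EiJ against 48.2% in C57BL/6J and WSB/EiJ.

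The shares of positions by class come from the same percentages as the level that the rule used, so they are given by strain as a description, with no test. The share of positions under 5% in a sample ran from 35.5 to 49.7%. PWK/PhJ had the fewest, 35.9% ± 0.634 (SD, n = 3), and C57BL/6J the most, 47.4% ± 2.85 (SD, n = 3). The share over 50% ran from 8.66 to 11.9%. It was 11.5% ± 0.415 (SD, n = 3) in A/J, 11.4% ± 0.278 in PWK/PhJ, 11.2% ± 0.270 in CAST/EiJ and 9.04% ± 0.330 in WSB/EiJ. The share between 5 and 50% was largest in PWK/PhJ, at 52.8% ± 0.670 (SD, n = 3), and smallest in C57BL/6J, at 43.1% ± 2.68 (SD, n = 3). Over 50% the strains with the largest shares were also those with the highest levels. In the plot of shares by strain the PWK/PhJ samples do not overlap with any other strain under 5%.

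**Figure D5:**
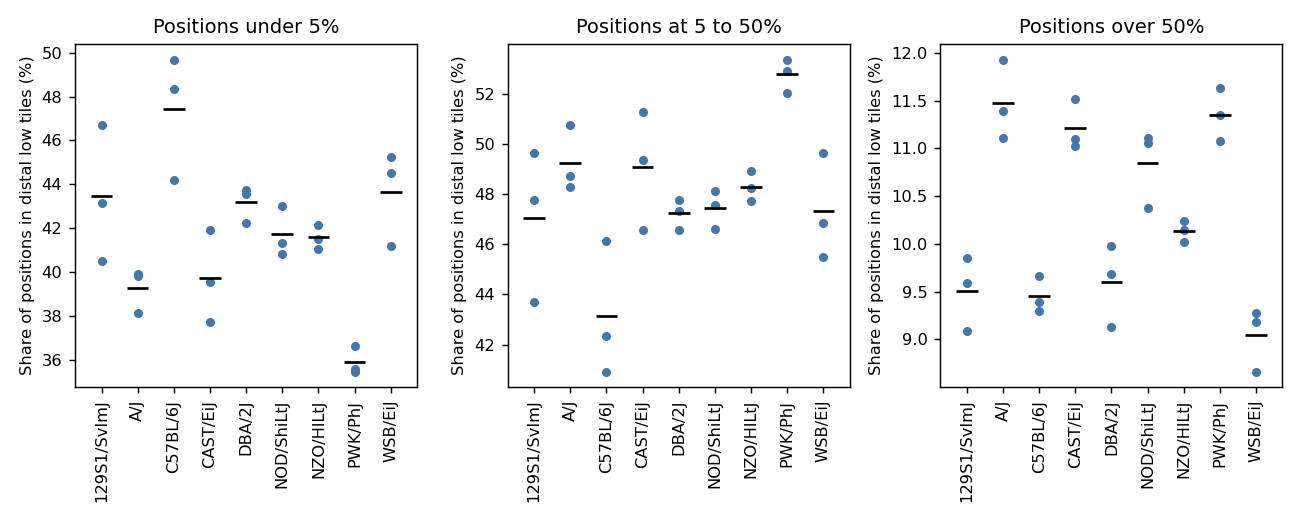
Share of the positions of the distal low tiles under 5%, from 5 to 50% and over 50% methylation (%), by strain; points are samples and black lines strain means, and the vertical axes do not start at 0. PWK/PhJ has the lowest share under 5% and C57BL/6J the highest, while over 50% A/J, PWK/PhJ and CAST/EiJ have the highest means and WSB/EiJ the lowest.

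The spread of positions within a tile is computed from the same percentages too and is likewise given by strain with no test. Its median SD ran from 20.6 points ± 0.478 (SD, n = 3) in WSB/EiJ to 23.2 ± 0.415 (SD, n = 3) in A/J. The gene-end tiles of the band had the same lowest and highest strains, with 22.6 ± 0.144 and 25.9 ± 0.169 (SD, n = 3). The strands of a CpG differed by a median of 5.56 points within a sample. By strain this was lowest in WSB/EiJ, at 4.87 points, and highest in PWK/PhJ, at 5.95. At other autosomal CpGs with a mean of 10 to 30% it was also lowest in WSB/EiJ, at 7.79, but highest in A/J, at 9.98. The part of read depth in the strain order of the spread was not tested, since depth is unknown. Over 27-sample means the strands differed by 1.36 points at 2140 CpGs of the tiles. The files of C57BL/6J named the mitochondrial chromosome otherwise than those of the other strains, and any difference in processing behind that cannot be told apart from strain. Without C57BL/6J, 30.5% of the tiles were called, and the difference in median SD from gene-end tiles was −2.55 points. The share called over all tiles without that strain is not given here.

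At single positions, 78 of 4207 tested in the tiles (1.85%) were called by limma at an adjusted p under 0.05 with strain means at least 25 points apart. Of all 704270 tested positions, on the autosomes and the X chromosome, 4.97% were called. The limit on tile means bears on the share in the tiles too, and nothing is read from it. It was 0.642% with an offset of 1 in place of 5 points in the log ratio and 3.80% on untransformed percentages. The shares over all positions in these settings are not given here. The called positions lay in 54 tiles, and 41 of these held a single one. Their ranges had a median of 42.1 points. CAST/EiJ was the highest strain at 22 of the 78, PWK/PhJ at 14 and A/J at 11, and C57BL/6J was the lowest at 18 and CAST/EiJ at 15.

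A tile mean within the band could hide large and opposed differences between strains. The following tiles were chosen after their values were seen. Near Ptpn1, which encodes a phosphatase that acts on the insulin receptor, the tile on chromosome 2 from 167895001 to 167896000 had strain means between 11.3 and 14.5% (limma, adjusted p = 0.93). Of its 8 positions, 6 were under 5%. The position at 167895530 was at 50, 60 and 100% in CAST/EiJ and 75, 75 and 100% in PWK/PhJ, and at 0% in all 6 samples of A/J and DBA/2J (limma, adjusted p = 0.000166). These values are coarse fractions, and the number of reads behind them is unknown. At 167895642 the order was turned. There CAST/EiJ was at 17.4, 20 and 20% and PWK/PhJ at 13.6, 18.2 and 28.1%, while A/J was at 90.5, 100 and 100% (limma, adjusted p = 5.42e-07). The samples of CAST/EiJ and PWK/PhJ lay below all others at that position, and the differences at the pair of positions, being opposed, left the tile mean within the band.

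The tile with the most called positions, 7 of 71, lay on chromosome 8 from 84192001 to 84193000, 15948 bp from Nanos3, which encodes an RNA-binding protein of germ cells. At 5 of the 7, between 84192709 and 84192728, CAST/EiJ stood alone. Of these, 84192719 and 84192720 are 1 base apart, as are 84192727 and 84192728, so the 5 positions are not 5 separate CpGs. At 84192727 the CAST/EiJ samples were at 41.2, 48.1 and 69.2%, and the highest sample of any other strain was at 10.5% (limma, adjusted p = 4.7e-05). At 84192719 they were at 41.2, 61.5 and 66.7%, and no other sample exceeded 16.7% (limma, adjusted p = 0.00106). CAST/EiJ also had the highest tile mean, 29.5%. In the Esrrg tile the 4 called positions were all on its methylated side, between 187651203 and 187651258 on chromosome 1, at strain means of 43.7 to 90.6%. There 187651203 and 187651204 are 1 base apart. Variants between strains can remove or create a CpG, and strain genomes were not used here, so their part in these differences was not tested.

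At the limits of the rule the values ran on without a gap. The lowest strain means just inside were 10%, near Lemd1 and Six2, and those just outside were 9.99% near Ebf3 and 9.97% near Chst8. The highest just inside were 29.9%, near 2300002M23Rik and Msrb3, and just outside 30.002% near Pmepa1 and 30.019% near Kash5.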

How the data were processed

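RRBS was performed on hepatocyte DNA of 27 mice. Per the submitters' processing notes, Trim Galore 0.6.3, Bowtie2 and Bismark 0.22 were used, and the builds GRCm38 and mm10 are named. The authors deposited 1 list per sample of positions with a percent methylation, per the file headers. No coverage is given, so the depth and any coverage filter are unknown and no counting interval can be had. Both strands of a CpG are separate positions. Of 272860 positions inside RefSeq promoter windows of GRCm38, 99.998% fell on a C or G of a CpG. The design foresaw a test on counts, and since the files hold percentages the alternative it names was used.

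Positions listed in all 27 samples were averaged in 1000-base tiles. The moderated F test of limma 3.58.1 (R 4.3.3), with strain as a factor, was run on log2((percent + 5)/(100 - percent + 5)) over all tiles, or positions, with a mean of 2.5 to 97.5%, with Benjamini-Hochberg adjustment over all of them. These tiles and positions lay on the autosomes and the X chromosome. Values per sample were compared between tile sets by their 9 strain means. Exact sign-flip tests over these means were run, as were tests among strains of the position shares, spread and strand differences by 100000 permutations. The p-values of these 8 tests are not printed, since they use the percentages that the rule used. Python 3.11.15, numpy 2.4.6, scipy 1.17.1, pandas 2.3.3 and matplotlib 3.10.9 were used. Replicates are biological per the labels, and same-numbered replicates of different strains did not deviate together over tiles.

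Genes are those of the RefSeq table of GRCm38.p6, which gives no strand, so distances are to either end. The tiles named are the 5 with the most positions, the 5 most even and 5 most uneven with 8 or more positions, the 5 with the smallest adjusted p, the 5 with the lowest and 5 with the highest flank, those nearest to genes of the lists, and those at the limits of the rule; 1 of these tiles is not reported here. The members and lists were chosen with earlier results of these data known. Alternatives tried were the number of positions, the band, the distance, the tile grid, merging of strands, the offset and scale of the log ratio, the mean filter, the replicate number as a block, other measures of unevenness, class and flank, leaving out each sample, and leaving out C57BL/6J, which was chosen after seeing the data.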

Additional observations from a re-analysis of the deposited data

How the results depend on the processing

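Of 263 alternative values, 248 kept direction and call or stayed within error, 14 moved and 1 reversed. Most of the 263 leave out a single sample. All 14 moved values were shares of tiles or positions called. For unevenness, position classes and the flank, a value counted as kept when direction and call stayed, whatever its size. Their calls rest on the tests whose p-values are not printed. The flank difference, 1.78 points, counted as kept at 11.7 with a flank at 3 to 5 kb. The spread difference from gene-end tiles, −2.50 points, counted as kept at −0.535 with the quartile range. The count of kept values thus does not show how steady these sizes were. The share of tiles stayed within error in 27 of 27 settings with a sample left out, and the share of positions in 25 of 27. Error of a share is an exact binomial interval, which takes tiles or positions as independent, although the strands of a CpG are separate positions. The reversed value was the pooled flank minus tile difference, −5.77 points with tiles over 2 kb from a gene end, against 1.78. The share of tiles called, 30.3%, was 52.9% with at least 10 positions per tile, 21.1% with at least 3, 19.4% with a band of 12 to 28%, 41.0% with a band of 5 to 35% and 37.5% on untransformed percentages. The share of positions called, 1.85%, was 1.30% with the narrow band, 3.54% with the wide band, 0.642% with an offset of 1, 3.80% on untransformed percentages and 1.17% without the mean filter. Leaving out each sample in turn gave 26.6 to 31.4% of tiles and 1.41% (without NOD/ShiLtJ replicate 2) to 2.00% of positions. The fit over all tiles or positions was the same for the narrow and the wide band. It was made anew for the other settings, and its share called over all tiles or positions is not given here. Those shares therefore cannot be set beside 26.1% of all tiles or 4.97% of all positions. The cause of these moves was not tested.

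Same-numbered replicates of different strains did not deviate together (mean correlation of tile deviations 0.00386 over 76 pairs, from -0.0410 to 0.0375). Whether they were prepared together cannot be told from this. With the replicate number as a block, 22.7% of tiles (81 of 357) and 1.09% of positions (46 of 4207) were called. The shares over all tiles and all positions with the block are not given here. Without coverage the precision of single values is unknown, and tiles with few positions were called less often, 17.5% of those with 5 to 9. The pooled flank difference was 0.713 points with tiles over 10 kb from a gene end and 11.7 points with a flank at 3 to 5 kb. Unevenness differed from gene-end tiles by −2.54 to −2.45 points with each sample left out. The difference was −1.49 points with gene-end tiles within 2 kb and −3.84 points with the tile grid shifted by 500 bases.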
